A study of Saccharomyces cerevisiae and Schizosaccharomyces pombe with 10 samples.

Results

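The small nucleolar RNAs (snoRNAs) of the fission yeast genes snu3, snu32 and snR30 were examined in long reads of nascent RNA. Read by read, the places where reads began and ended were recorded. The 3 genes were chosen by name because earlier counts from the same library had placed them first by reads among snoRNA genes and had shown scattered 5' ends, so read counts and end positions are given as descriptions, with no test. They are 3 of 1487 Schizosaccharomyces pombe genes with at least 1 same-strand read. Together they held 3241 of the 10989 reads on annotated snoRNA genes (29.5%). All reads that overlapped an annotated span by at least 1 base on the same strand were taken, and a window of 300 nt on each side was inspected as well.

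The material was 1 library of the wild-type h- strain L972, from cells growing exponentially in the glucose medium YES. Nascent RNA, which stays bound to chromatin with the transcribing polymerase, was purified, joined at its 3' ends to a DNA adaptor, copied into cDNA with a template-switching kit and read as circular consensus sequences on a Pacific Biosciences instrument. Budding yeast libraries and a splicing reporter are also part of the series and were not analysed here. The S. pombe library held 16126 alignments of 16122 reads, with a median aligned length of 157 nt and a longest of 356 nt. There was no replicate, so intervals are 95% Wilson intervals unless named otherwise and cover counting error only, and the random adaptor bases that could mark PCR copies were not used here. Finished snoRNA that stays with chromatin could not be told apart from RNA still being made. A read begins where its cDNA copy stopped, and whether this is also the 5' end of the RNA molecule was not tested. The terms 5' end and start below refer to reads.

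U3 is a box C/D snoRNA, the class bound by fibrillarin through the short boxes C and D, and it is needed for the early cleavages that free the precursor of 18S rRNA. It is encoded in fission yeast by snu3 (U3, also snu3A) and snu32 (U3B). SnR30, the U17 RNA of vertebrates, belongs to the other class, the box H/ACA snoRNAs, which end a few bases after an ACA triplet. Unlike most H/ACA RNAs it does not guide pseudouridine formation but takes part in 18S rRNA processing, and in budding yeast it pairs with 18S rRNA through motifs called m1 and m2.

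The RNAs as the reads delimit them, from the commonest 5' base to the commonest 3' base, are shown first because all positions are counted along them, from 1 at the commonest 5' base. For snR30 the last 300 bases are given. Bases come from the RefSeq assembly ASM294v3. Capitals mark TGATGA, the core of C-type boxes, and CTGA, the core of box D, in the U3 RNAs. In snR30 they mark ATATTCCTA (m1), AAACCAT (m2) and the last ACA.
snu3, I:987693-987947, minus strand: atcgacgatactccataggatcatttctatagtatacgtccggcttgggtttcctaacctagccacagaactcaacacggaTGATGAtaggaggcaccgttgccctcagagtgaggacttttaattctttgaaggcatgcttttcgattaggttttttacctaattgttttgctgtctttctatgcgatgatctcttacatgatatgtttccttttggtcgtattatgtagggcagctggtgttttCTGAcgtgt
snu32, II:3958833-3959086, minus strand: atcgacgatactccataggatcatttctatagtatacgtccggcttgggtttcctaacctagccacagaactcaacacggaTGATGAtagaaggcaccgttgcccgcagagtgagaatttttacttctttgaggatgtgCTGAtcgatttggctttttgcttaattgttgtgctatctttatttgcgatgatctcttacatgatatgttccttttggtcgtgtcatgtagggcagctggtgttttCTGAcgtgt
snR30, positions 28 to 327, I:3394902-3395201, plus strand: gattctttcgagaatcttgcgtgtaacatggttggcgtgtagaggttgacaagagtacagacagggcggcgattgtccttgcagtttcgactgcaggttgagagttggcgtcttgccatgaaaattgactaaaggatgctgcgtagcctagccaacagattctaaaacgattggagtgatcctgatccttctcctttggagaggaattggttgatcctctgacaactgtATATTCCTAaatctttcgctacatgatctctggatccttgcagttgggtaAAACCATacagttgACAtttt

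The motifs were searched on both strands and none overlapped another. TGATGA occurred once in each U3 RNA, at positions 82 to 87. CTGA lay 5 nt before the 3' end of both U3 RNAs, at 247 to 250 in snu3 and 246 to 249 in snu32. A further CTGA lay at 140 to 143 in snu32, and snu3 held 1 CTGA on the opposite strand. The m1 letters of snR30 lay at 257 to 265, the m2 letters at 307 to 313 and the last of 10 ACA triplets at 321 to 323, which is 4 nt before the commonest 3' base and 3 nt before the annotated one. Among the first 255 bases of 11469 annotated genes, 9.22% held TGATGA and 55.3% held CTGA on the same strand. CTGA stood in the last 12 of those bases in 3.17%. Among the first 327 bases of 10677 genes, 0.197% held the m1 letters, 4.39% the m2 letters and 99.3% an ACA, with an ACA in the last 12 bases of the window in 15.9%. These matches describe the letters and show no binding.

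SnR30 gave 984 reads (6.10% of the library), snu3 1013 (6.28%) and snu32 1244 (7.71%). Between the U3 genes, snu32 had 1244 reads and snu3 1013, a ratio of 1.23 (95% interval 1.13 to 1.33). Reads that match both genes, if removed before deposit, are missing from both counts. Every read aligned in a single block, so no alignment of these genes was split by a gap. Gaps too small to split a block would not be seen. The windows of 300 nt on each side added 0 same-strand reads to any gene and held 0 antisense reads, a count that allows up to 3. The nearest annotated genes also had 0 same-strand reads of their own: cid13 and the opposite-strand non-coding gene SPNCRNA.2435 beside snu3, grx4 and SPNCRNA.6369 beside snu32, and SPNCRNA.3513 and pdi4 beside snR30. SPNCRNA.2435 overlaps the annotated span of snu3 by 133 nt on the other strand.

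The 3' ends were sharp. In snu3 832 of 1013 reads ended on the same base (82.1%, 79.7 to 84.4), and 923 (91.1%, 89.2 to 92.7) ended within 1 nt of it. In snu32 997 of 1244 reads shared the commonest 3' base (80.1%, 77.8 to 82.3), and 1108 (89.1%, 87.2 to 90.7) lay within 1 nt. SnR30 ended less uniformly at single-base resolution, with 584 of 984 reads on the commonest base (59.3%, 56.3 to 62.4) and 233 (23.7%) on the base before it. Within 1 nt its share was 881 reads (89.5%, 87.5 to 91.3), and the U3 intervals overlap it.

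The departures from the commonest 3' base differed between the RNAs. Both U3 RNAs had mostly shorter neighbours. In snu3 82 reads stopped 1 nt, 26 stopped 2 nt and 10 stopped 3 nt before the commonest base, against 9 that ran 1 nt past it. The same steps held 100, 33, 12 and 11 reads in snu32. Reads that ended 1 to 5 nt short made up 12.6% of snu3 (10.7 to 14.8) and 12.8% of snu32 (11.04 to 14.7), and those that ended 1 to 5 nt long 1.97% and 2.09%. In snR30 28.8% (26.0 to 31.7) ended 1 to 5 nt short and 6.61% (5.22 to 8.33) 1 to 5 nt long, including 64 reads that ran 1 nt past. The 30 bases around each end, with the commonest last base in capitals, show the same letters up to this base in both U3 RNAs. In all 3 RNAs this base lies in a run of T. It is the first T of the run in both U3 RNAs and has T on both sides in snR30.
snu3: gctggtgttttctgacgtgTttaatttcat
snu32: gctggtgttttctgacgtgTtttctgtaca
snR30: aaccatacagttgacatttTtcatttgggt

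The 5' ends were scattered. The commonest 5' base held 119 reads of snu3 (11.7%, 9.91 to 13.9), 144 of snu32 (11.6%, 9.91 to 13.5) and 100 of snR30 (10.2%, 8.43 to 12.2). Within 1 nt of it began 11.9% of snu3 reads (10.1 to 14.1), 12.4% of snu32 reads (10.7 to 14.3) and 10.8% of snR30 reads (8.99 to 12.9). Reads of snu3 began at 138 different bases and ended at 33, those of snu32 began at 150 and ended at 48, and those of snR30 began at 146 and ended at 38. To hold 50% of the reads, 13 start positions were needed in snu3, 14 in snu32 and 15 in snR30, whereas a single 3' base did so in each. Starts before the commonest 5' base were rare, with 4 reads of snu3, 7 of snu32 and 4 of snR30.

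**Figure D1:**
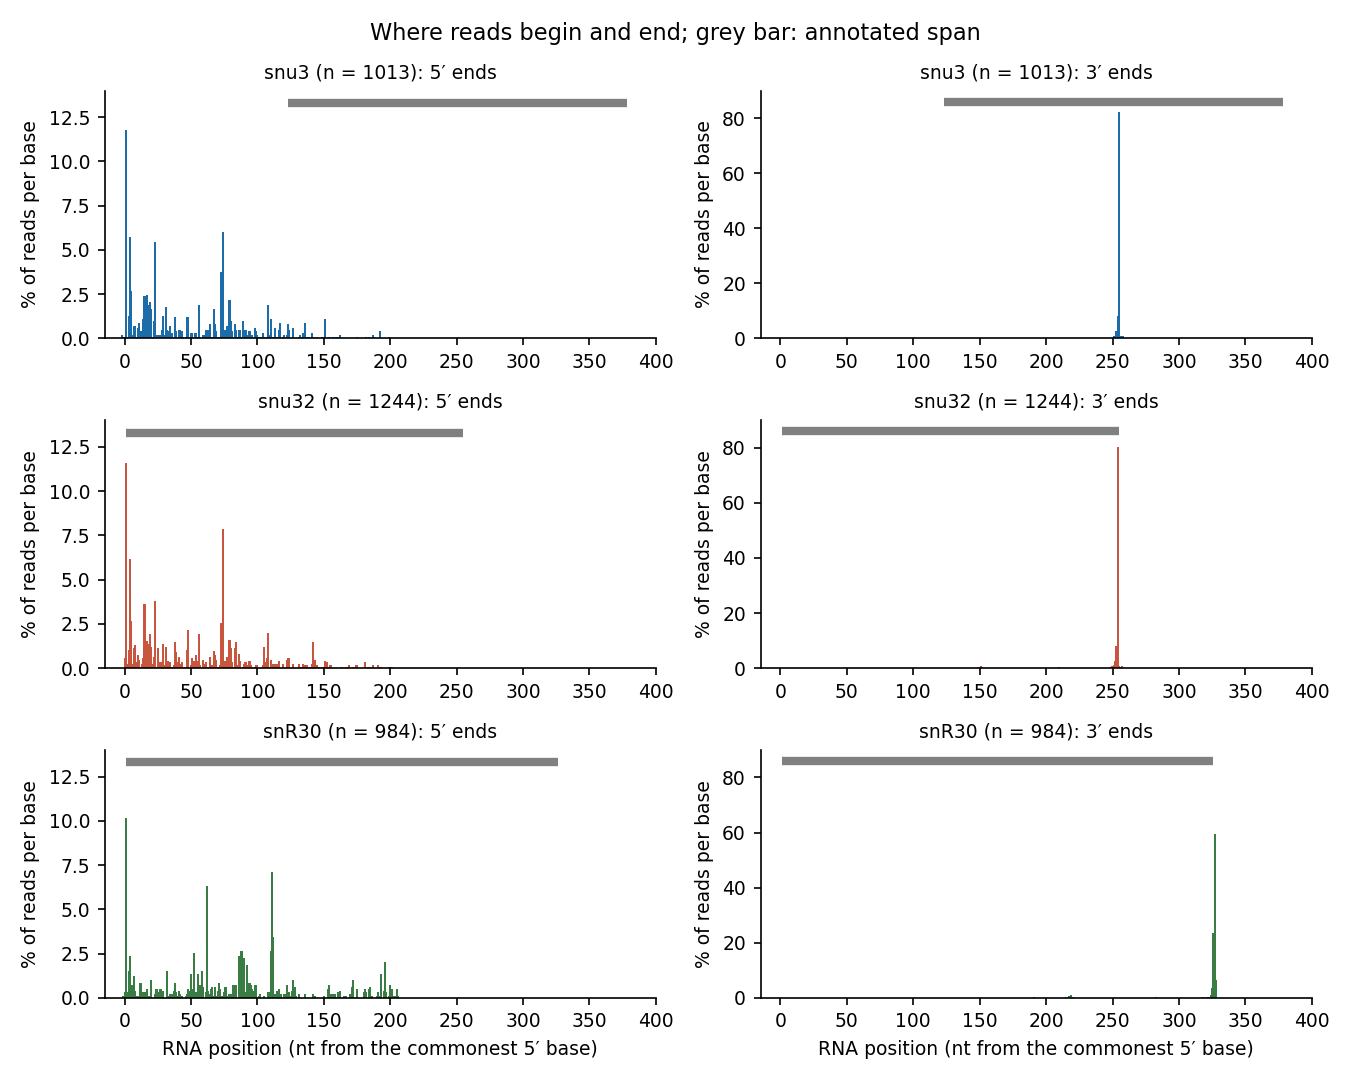
Percent of reads that begin (left) and end (right) at each base of snu3 (1013 reads), snu32 (1244) and snR30 (984), with position in nt from the commonest 5' base; the grey bar is the annotated span. The vertical scales differ: starts spread over the first 200 nt with no base above 12%, ends pile up on 1 base, and the annotated span of snu3 begins 122 nt after its commonest 5' end.

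The commonest ends lay within 1 nt of the annotation in snu32 and snR30 and far from it in snu3. In snu32 (annotated II:3958832-3959086, 255 nt) the commonest 5' base was the annotated one, and the commonest 3' base lay 1 nt before the annotated end. In snR30 (annotated I:3394875-3395200, 326 nt) the commonest 5' base was also the annotated one, and the commonest 3' base lay 1 nt past the annotated end. The gene snu3 is annotated at I:987570-987825 (256 nt, minus strand), but its commonest 5' base lay 122 nt upstream of that span and its commonest 3' base 123 nt before its end. Of its reads, 940 (92.8%, 91.0 to 94.2) began upstream of the annotated start, 15 (1.48%) began within 1 nt of it, and 0 of 1013 (Wilson upper bound 0.378%) ended within 1 nt of the annotated 3' end. A commonest 3' end more than 2 nt from the annotation was not rare, since 14 of the 38 snoRNA genes with at least 50 reads had one (36.8%), snu3 among them and snu32 and snR30 not. Other annotations of snu3 were not examined here. The member was chosen with this placement known, so nothing is read from the share.

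The 255 nt of snu3 delimited by the reads aligned with the 254 nt of snu32 over 254 positions with 1 unpaired base, and 233 positions were identical (91.7%). The 2 annotated spans aligned over 229 positions with 134 identical (58.5%). The first 90 positions of the RNAs as read were identical, the longest such run. Identity was 39 of 50 positions between 101 and 150 and 52 of 54 from 201 to the end. SnR30 lies on the same chromosome as snu3, and its commonest 5' base was the annotated one.

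Because the U3 genes are so alike, reads could in principle have been placed on the wrong copy. No alignment of either gene had a genomic sequence that also occurs in the other. If alignments that match several places were removed before deposit, this count could only be 0. Whether they were removed was not tested, so the count cannot speak to such reads. Reads of snu3 spanned a median of 22 positions at which the genes differ (fewest 3), and reads of snu32 a median of 21 (fewest 1). The base calls of the reads are not among the values used here, so sequencing errors at the reads with few differences could not be examined.

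Most reads began well inside the RNA. At least 10 nt inside the commonest 5' base began 768 of 1013 snu3 reads (75.8%, 73.1 to 78.3), 921 of 1244 snu32 reads (74.0%, 71.5 to 76.4) and 813 of 984 snR30 reads (82.6%, 80.1 to 84.9). Measured from the RefSeq start of snu3, the count would be 51 reads (5.03%). The starts thinned out towards the 3' end. In snu3 568 reads (56.1%) began in the first 50 nt, 301 (29.7%) from 51 to 100, 112 (11.1%) from 101 to 150 and 28 (2.76%) from 151 to 200. The same bins held 679, 368, 152 and 37 reads in snu32. SnR30 had its fullest bin later, with 289 reads (29.4%) in the first 50 nt, 353 (35.9%) from 51 to 100, 199 (20.2%) from 101 to 150, 126 (12.8%) from 151 to 200 and 13 (1.32%) from 201 to 250. The last start lay at 199 in snu3, 201 in snu32 and 206 in snR30.

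Within this spread a few internal bases were preferred. The second commonest start of both U3 RNAs was position 74, with 61 snu3 reads (6.02%, 4.72 to 7.66) and 98 snu32 reads (7.88%, 6.51 to 9.51). The order varied between sets of movies: the second start was 23 in the earlier movies of snu3 and 4 in the later movies of snu32. Over all reads, next came position 4, with 58 and 77 reads, and position 23, with 55 and 47 reads. The fifth place was position 73 in snu3 (38 reads) and position 15 in snu32 (45 reads). SnR30 had 70 reads at 111 (7.11%, 5.67 to 8.89), 62 at 62 (6.30%, 4.95 to 7.995), 34 at 112 and 26 each at 88 and 110. Position 74 of U3 lies 8 nt before the TGATGA box. The bases around the strongest internal starts are shown with 10 nt before the first base of the reads, which is in capitals.
snu3, position 74: cacagaactcAacacggatg
snu32, position 74: cacagaactcAacacggatg
snu3, position 23: ccataggatcAtttctatag
snu32, position 23: ccataggatcAtttctatag
snR30, position 111: tgtccttgcaGtttcgactg
snR30, position 62: aacatggttgGcgtgtagag

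Counted by read, internal starts lay on A or G more often than these bases occur in the RNAs. Among internal starts of snu3 (768 reads), 47.8% had A as the first base and 8.59% had T, while A made up 23.1% and T 35.4% of the 195 positions considered, which run from 10 nt inside the commonest 5' base to 50 nt before the 3' end. In snu32 (921 reads) the shares were 45.7% A and 11.6% T, beside 22.7% and 35.6% of 194 positions. In snR30 (813 reads) G led with 44.8% and T had 13.04%, beside 25.8% and 30.7% of 267 positions. A few strong positions weigh heavily in these shares. Counting each used position once, A and T each stood at 27.2% of 125 positions in snu3 and at 26.6% of 139 in snu32. A therefore did not lead T in the U3 RNAs when counted this way. In snR30 G stood at 35.8% and T at 19.4% of 134 positions. GGG stood just before 0.391% of internal starts in snu3, 0.217% in snu32 and 0.984% in snR30, beside 0.513%, 0.515% and 0.375% of positions.

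The start positions of the U3 genes were alike at most bases. Of the 10 commonest start positions of snu3, 8 were among the 10 commonest of snu32 at the aligned base, and 5 of the 8 lay at least 10 nt inside. Over the 254 aligned positions the start shares had a Pearson r of 0.95 and a Spearman rho of 0.79, and over 195 positions at least 10 nt inside these were 0.89 and 0.72. The points are bases of 2 near-identical RNAs from 1 library, so the correlations are descriptions. Of 36 aligned positions with at least 10 reads in either gene, the intervals of the 2 shares overlapped at 33. The exceptions were position 89, with 10 snu3 reads (0.987%) and 1 snu32 read (0.0804%), position 105, with 1 (0.0987%) and 15 (1.21%), and position 142, with 1 (0.0987%) and 18 (1.45%). These 3 were picked once their values were known. The windows of 20 bases around them, with the aligned base in capitals, were identical at 19, 19 and 13 bases, so the genes differed near each. Among positions whose window lay wholly inside the RNA, those at 83, 84, 86, 108, 110 and 151 also had windows that differed, and there the intervals overlapped. At positions 1, 3, 4, 5, 7 and 8 the window reaches into the sequence before the RNA, which was not aligned, and the intervals overlapped as well.
snu3, position 89: ggatgatgatAggaggcacc
snu32, position 89: ggatgatgatAgaaggcacc
snu3, position 105: caccgttgccCtcagagtga
snu32, position 105: caccgttgccCgcagagtga
snu3, position 142: aaggcatgctTttcgattag
snu32, position 142: aggatgtgctGatcgatttg

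**Figure D2:**
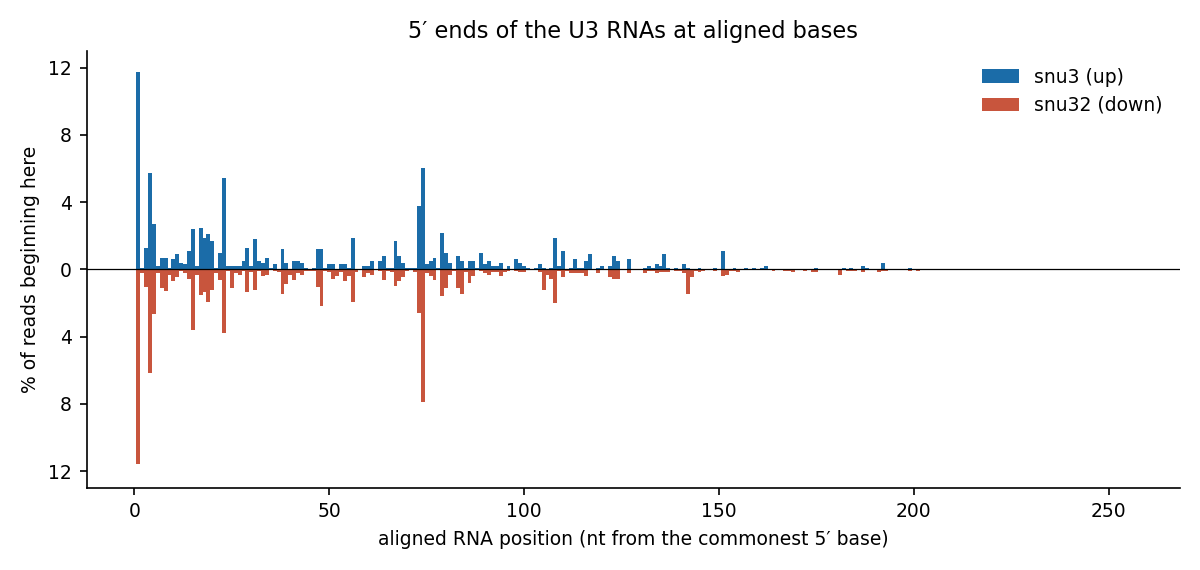
Percent of reads that begin at each aligned base of the U3 RNAs, snu3 upward (1013 reads) and snu32 downward (1244 reads). The peaks at positions 1, 4, 23 and 74 face each other, while position 142 is used by snu32 only at more than 1 read.

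Read length followed the start. The median aligned length was 217 nt in snu3 (5th to 95th percentile 122 to 255), 207 nt in snu32 (113 to 254) and 242 nt in snR30 (132 to 327), or 85.1%, 81.5% and 74.0% of the RNA as read. In snu3 reads of 100 to 149 nt began at a median position of 117, those of 150 to 199 nt at 74, those of 200 to 249 nt at 23 and those of 250 nt or more at 1. The medians in snu32 were 117.5, 74, 23 and, for 250 to 299 nt, 1. In snR30 they were 193, 155, 108 and 58 for the classes from 100 to 299 nt, and 3 for reads of 300 nt or more.

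The 3' end stayed fixed across most of these classes. In snu3 84.6% of 130 reads of 100 to 149 nt (77.4 to 89.8), 90.3% of 289, 94.5% of 362 and 90.7% of 215 reads in the longer classes ended within 1 nt of the commonest 3' base. In snu32 the shares were 81.6% of 174 reads (75.2 to 86.7), 90.9% of 362, 90.2% of 437 and 91.2% of 239. In snR30 they were lower in short reads, with 75.2% of 105 reads of 100 to 149 nt (66.2 to 82.5) and 73.0% of 74 reads of 150 to 199 nt (61.9 to 81.8). Reads of 200 to 249 nt gave 92.4% of 341 (89.1 to 94.7), those of 250 to 299 nt 92.3% of 259, and those of 300 nt or more 95.1% of 204 (91.2 to 97.3). With a fixed 3' end the length sets the start, so these classes describe the same spread and are not separate evidence for it.

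**Figure D3:**
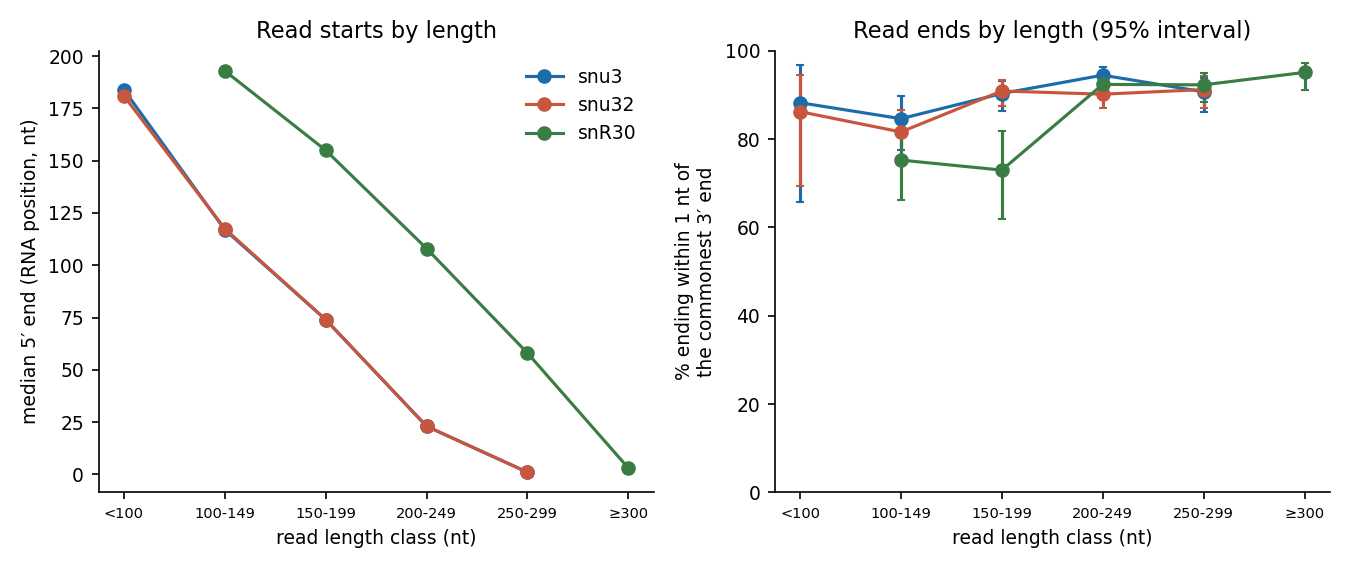
Left, median start (RNA position, nt) by read length class for snu3, snu32 and snR30; right, percent of those reads that end within 1 nt of the commonest 3' base, with 95% Wilson intervals; classes of fewer than 10 reads are left out, and the last U3 class holds reads of 250 nt or more in snu3 and 250 to 299 nt in snu32. Starts move inward as reads shorten, the U3 lines lie on each other, and ends stay between 73.0% and 95.1% at the common base.

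Few reads spanned the whole RNA, and coverage rose from the 5' end. Both ends within 1 nt of the commonest were found in 99 snu3 reads (9.77%), 117 snu32 reads (9.41%) and 92 snR30 reads (9.35%). Position 50 was covered by 56.5% of snu3, 55.1% of snu32 and 29.8% of snR30 reads, and position 100 by 86.2%, 84.7% and 65.7%. TGATGA was held whole by 808 snu3 reads (79.8%, 77.2 to 82.1) and 980 snu32 reads (78.8%, 76.4 to 81.0), and the CTGA near the 3' end by 97.0% and 95.4%. In snR30 948 reads held m1 (96.3%, 94.98 to 97.3), 940 held m2 (95.5%, 94.1 to 96.7) and 932 the last ACA (94.7%, 93.1 to 95.9). Most snR30 reads held m1 and m2 and lacked the first 50 nt.

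**Figure D4:**
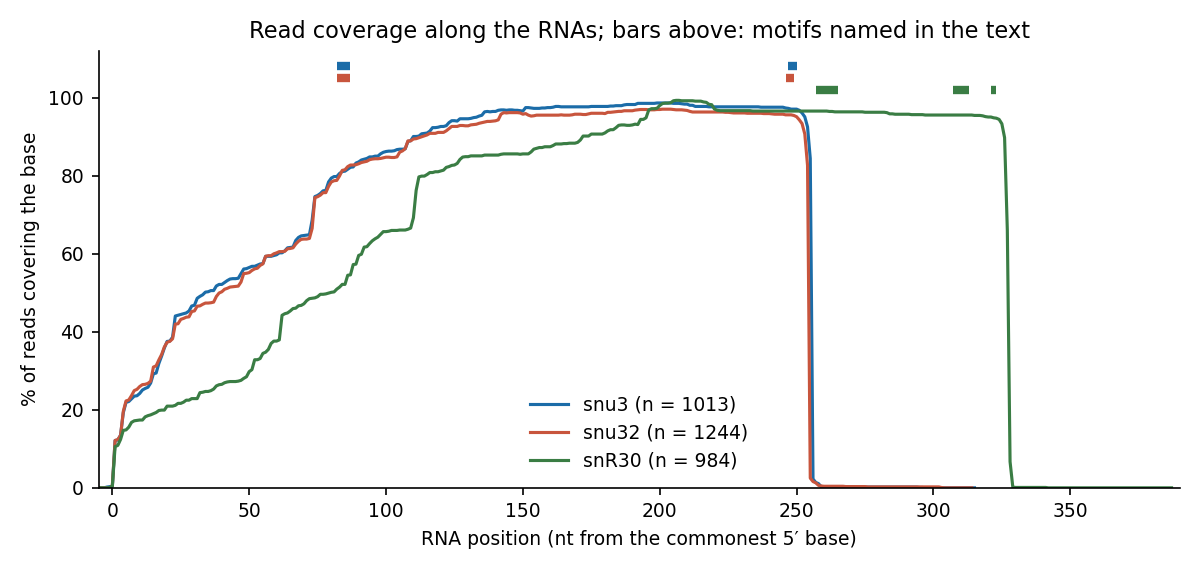
Percent of reads that cover each base of snu3 (1013 reads), snu32 (1244) and snR30 (984) against RNA position in nt from the commonest 5' base; bars above the curves mark TGATGA and the CTGA near the 3' end in snu3 (top row) and snu32 (middle row), and m1, m2 and the last ACA in snR30 (bottom row). Coverage climbs in steps at the preferred starts and drops at a single place at the 3' end.

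A small set of reads ended inside the RNA, at least 10 nt before the commonest 3' base. There were 27 in snu3 (2.67%, 1.84 to 3.85), 53 in snu32 (4.26%, 3.27 to 5.53) and 46 in snR30 (4.67%, 3.52 to 6.18). These ends gathered in places. At the aligned positions 147 to 153 lay 8 of the 27 in snu3 and 22 of the 53 in snu32. In snR30 23 of 46 lay at 215 to 220, with 11 on position 219. The stretches were chosen for holding most internal ends: 6 nt in snR30, and in the U3 RNAs the join of 148 to 153 (snu3) and 147 to 152 (snu32). No read of snu3 ended before position 125, of snu32 before 101 or of snR30 before 107. For snu3 this is not set by the annotated span, since reads that end earlier would have lain in the window of 300 nt, which held none. A U3 read that lies within the first 90 positions would match both genes, however. Whether such reads were removed before deposit was not tested, so the lack of early ends in U3 may not describe the RNA.

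In snR30 and snu32, internal 3' ends made up a larger share of reads that began at the commonest 5' end than of reads that began inside. In snR30 12 of 106 reads that began within 1 nt of the commonest 5' base ended at least 10 nt early (11.3%, 6.60 to 18.8), against 30 of 813 that began at least 10 nt inside (3.69%, 2.60 to 5.22). In snu32 it was 14 of 154 (9.09%, 5.49 to 14.7) against 24 of 921 (2.61%, 1.76 to 3.85). In snu3 it was 6 of 121 (4.96%, 2.29 to 10.4) against 18 of 768 (2.34%, 1.49 to 3.67), and these intervals overlap. A read that both begins and ends inside is shorter, and the shortest reads were 57 nt in snu3, 47 nt in snu32 and 79 nt in snR30; the part of read length in these values was not tested.

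Reads extended past the 3' end were rare and began at or near the commonest 5' base. Only 9 of the 3241 reads went 10 nt or more beyond the commonest 3' base: 3 in snu3 (0.296%, 0.101 to 0.867), 5 in snu32 (0.402%, 0.172 to 0.937) and 1 in snR30 (0.102%, 0.0179 to 0.573). In snu3 they ran 16, 39 and 41 nt past. In snu32 they ran 13, 21, 48, 48 and 49 nt past, and in snR30 14 nt. Of the 9, 8 began on the commonest 5' base and 1, in snu3, on position 5. By contrast, 0 of the 2502 reads that began at least 10 nt inside were extended. If 0 reads allow up to 3, the share could be up to 0.120%, which is not a Wilson bound. Of the extended reads, 5 came from the earlier and 4 from the later sequencing movies. Both snu32 reads at 48 nt came from the earlier ones and have the same ends. The longest read of the library, 356 nt, leaves room for 101 nt past a complete snu3, 102 nt past snu32 and 29 nt past snR30, and longer extensions of a complete snR30 lay outside the read lengths seen.

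The 60 bases before each commonest 5' base are given because they hold the promoter-proximal sequence and because for snu3 they lie inside no annotated span of that gene. TATAAA, the core of a TATA box, is in capitals and was searched on both strands. It began 33 nt before the first base of snu32 and 32 nt before that of snR30. These exact letters were not found in the 60 nt before snu3, on either strand, but the bases there hold tatatata. Variants of TATAAA were not searched, so whether snu3 has a TATA box was not tested. Among the 60 bases before the annotated starts of 12605 genes, 7.09% held TATAAA on the same strand and 11.6% on either.
snu3, I:987948-988007, minus strand: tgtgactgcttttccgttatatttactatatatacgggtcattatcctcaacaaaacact
snu32, II:3959087-3959146, minus strand: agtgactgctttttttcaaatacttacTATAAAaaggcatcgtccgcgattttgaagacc
snR30, I:3394815-3394874, plus strand: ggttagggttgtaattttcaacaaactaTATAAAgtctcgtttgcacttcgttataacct

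The 3 RNAs were set beside the 35 other snoRNA genes with at least 50 reads. At the 3' end they lay near the middle: 91.1%, 89.1% and 89.5% of reads within 1 nt of the commonest end, beside a median of 89.8% in the others (54.0 to 99.5). At the 5' end they had 11.9%, 12.4% and 10.8%, beside a median of 82.1% (7.27 to 98.9). Only snR95, with 55 reads, was lower than all 3. Its annotated span is 222 nt and its median read 165 nt, but its commonest 5' end lay 133 nt inside that span, so its length between the commonest ends, 90 nt, understates the RNA. With 90.9% of reads within 1 nt of the commonest 3' end, it too had a sharp 3' end and scattered 5' ends. The genes were chosen with these shares known, so the contrast is a description. They were also the longest RNAs of the set, with 255, 254 and 327 nt between the commonest ends, beside a median of 90 nt and a longest of 221 nt in the others. Across all 38 genes the 5' share fell with length, with a Pearson r of -0.67 and a Spearman rho of -0.60. Without the 3 genes they were -0.43 and -0.50 over 35 genes, which share the library and its read lengths. Leaving out snR95, a choice made after seeing the data, gave -0.78 and -0.62 over 37 genes, and -0.59 and -0.52 over the 34 that are not members. Among the 11 others of at least 150 nt the 5' share ran between 32.1% and 91.9% with a median of 63.6%, and with snR95 added the 12 ran between 7.27% and 91.9% with a median of 62.4%. The most abundant other snoRNAs, sno12 (783 reads, 189 nt) and snoZ7 (702 reads, 99 nt), had 63.6% and 80.2%.

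Other RNAs of comparable length gave both kinds of value. The RNA of the signal recognition particle, srp7, is 255 nt long between its commonest ends, as long as snu3, and its commonest 5' end, within 1 nt, held 70.3% of its 118 reads (61.6 to 77.8). In the U2 spliceosomal RNA, snu2 (186 nt), it was 18.1% of 72 reads (10.9 to 28.5). Both were picked with these values known.

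**Figure D5:**
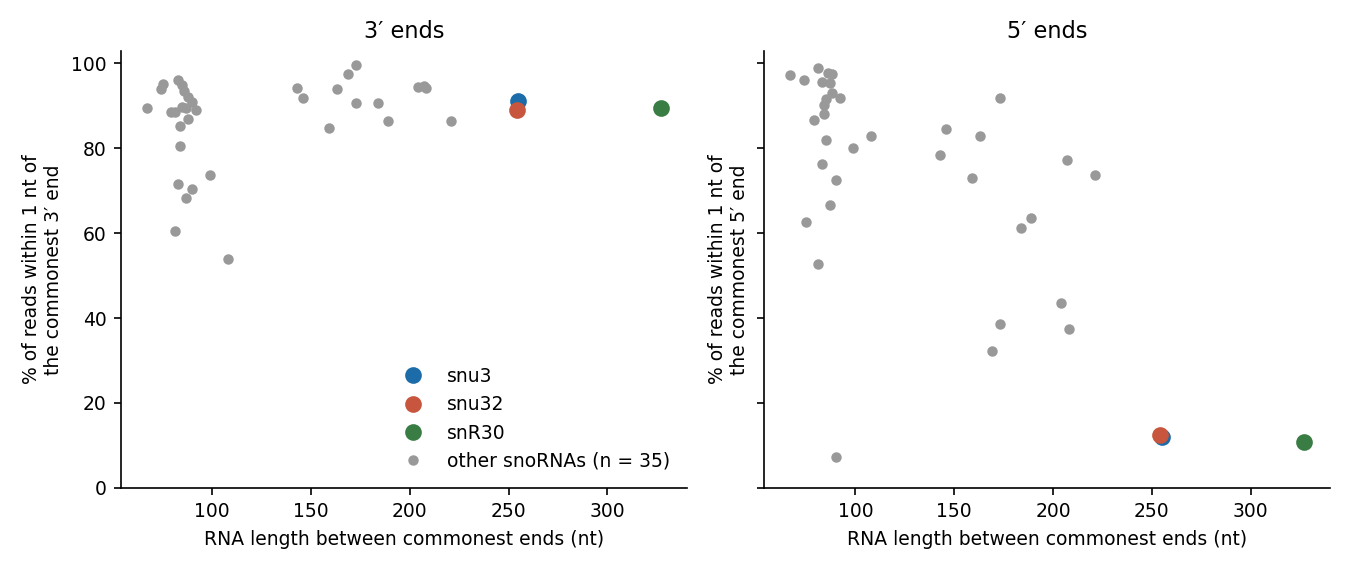
Percent of reads within 1 nt of the commonest 3' end (left) and 5' end (right) against RNA length in nt between the commonest ends, for snu3, snu32 and snR30 (coloured) and 35 other snoRNA genes with at least 50 reads (grey). The 3 genes lie level with the others at the 3' end and near the bottom at the 5' end, where snR95 lies lower; it is plotted at 90 nt because its commonest 5' end lies inside its annotated span of 222 nt.

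Other factors of 18S rRNA processing were counted for comparison. The U14 RNA gene snoU14, a box C/D snoRNA needed for 18S processing, had 376 reads (exact Poisson interval 339 to 416), while snR10 had 0. Of 10 protein genes, 8 had reads, 13 in all. Among proteins of the U3 particle, nop56 had 4 reads, snu13 3, nop58 and rrp9 1 each and the fibrillarin gene fib1 0. The core H/ACA protein genes cbf5, gar1, nhp2 and nop10 had 1 each, and tgs1, which methylates snoRNA caps, had 0. With such counts the protein genes could not be compared with each other.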

How the data were processed

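One S. pombe nascent RNA sample was used. The authors deposited genome alignments of circular consensus reads, 1 line per alignment with start, end, strand and blocks. The deposited score, 40 throughout, entered no result. Cutadapt 1.8 and a budding yeast build are named, per the submitters' processing notes, and that build cannot be the build of these alignments. The aligner was not given in the sources used here. All alignments to chromosomes I, II and III fell inside their ASM294v3 lengths, and the RefSeq annotation of that assembly supplied genes. Coordinates count from 1.

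Reads were assigned by same-strand overlap of at least 1 base, and for the comparison to the snoRNA gene with the largest overlap. Shares carry 95% Wilson intervals (Python 3.11.15, scipy 1.17.1). The U3 RNAs were aligned globally with Biopython 1.88 (match 2, mismatch -1, gap -4, extension -1). Counting was tested on simulated reads. Their 5' shares were set higher than those of the members, so starts as scattered as these were not covered. No test between groups was made. Alternatives were distinct alignments, movies by date, overlap of 50%, a 5 nt window and other reference points. Members and lists were chosen with earlier results of these data known. By plan the named genes were the members, the 18S list, nearest neighbours and the most abundant other snoRNAs. The 5 commonest starts and 3 commonest ends were named within each member. The genes snR95, srp7 and snu2 were named outside this plan, with their values known.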

Additional observations from a re-analysis of the deposited data

How the results depend on the processing

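The scatter of 5' ends and the sharpness of 3' ends held in every setting, but their size depended on how identical alignments were counted. Of 85 alternative values, 58 lay within the 95% interval of the reported one. All 15 values of the earlier movies and 14 of 15 of the later movies did, the exception being the extended reads of snR30, of which the later movies held 0% of 515. Both sets of movies read the same library and are parts of the reads behind each interval. Their values could therefore hardly fall outside it, and they do not speak to preparation or PCR. Leaving out reads shared between the U3 genes removed none, so its 10 values could not move. The 50% overlap rule kept every read of snu32 and snR30, so the count of 58 overstates how stable the values are. Outside the interval lay 14 values with identical alignments counted once, 6 with a window of 5 nt and 3 with starts at least 30 nt inside. Identical alignments counted once (262, 321 and 346 for snu3, snu32 and snR30) gave 71.0%, 64.8% and 73.1% ending within 1 nt of the commonest 3' base, and 6.11%, 9.35% and 6.07% beginning within 1 nt of the commonest 5' base, which were the same bases as before. It gave 11.5%, 78.8% and 86.99% beginning at least 10 nt inside the annotated start, and 1.15% of snu3 and 1.25% of snu32 extended. By construction this count weighs a fixed end less, and copies made by PCR were not told apart from separate molecules. With a window of 5 nt, 96.7%, 95.02% and 94.7% ended and 22.1%, 22.5% and 15.5% began near the commonest base. At least 30 nt inside the annotated start began 1.68%, 54.7% and 77.1%. For snu3, measured from the commonest 5' base, a setting added after seeing the data, it was 75.8% at least 10 nt inside. Requiring 50% of a snu3 read inside the RefSeq span gave 92.95% at the 3' end, and 0% of its reads ran past the annotated 3' end. No paired analysis was possible because the results come from 1 sample and from no test. With no replicate, the depth of 984 to 1244 reads per gene limits counting error only, and the 9 extended reads are too few to compare genes.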
